A study of Mus musculus with 17 samples.

Results

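A set of 10 genes that protect cells from reactive oxygen and from free metal ions was followed through the ageing mouse hippocampus. They are the metallothioneins Mt1, Mt2 and Mt3, the inducible enzymes Hmox1 and Nqo1, the superoxide dismutases Sod1, Sod2 and Sod3, and the peroxide-removing enzymes Cat and Gpx1. The genes were chosen by name, and all 10 were found among the 38355 Ensembl identifiers that were counted. RNA came from hand-dissected hippocampus of untreated wild type mice of the strain C57BL/6J at 3, 24 and 29 months of age (3M, 24M and 29M), after selection of polyA RNA. The single-end libraries of short reads held 5 samples at 3M and 6 at 24M, and the paired-end libraries of longer reads held 3 samples at 3M and 3 at 29M. The 24M samples were compared with 3M among single-end libraries and the 29M samples with 3M among paired-end libraries, so age and library type cannot be told apart between 24M and 29M. All groups share strain, genotype and tissue, and no group carried a transgene or received an agent. Per the study methods, the 29M mice were bought as aged mice and kept on for some months, so their group name stands for a narrow span of ages.

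Superoxide, made largely as a by-product of respiration, is turned into hydrogen peroxide by superoxide dismutases that sit in the cytosol (Sod1), the mitochondria (Sod2) and the extracellular space (Sod3). Hydrogen peroxide is then removed by catalase (Cat) in peroxisomes and by glutathione peroxidase 1 (Gpx1) with glutathione. Metallothioneins are small cysteine-rich proteins that bind zinc and copper. Mt1 and Mt2 are induced by metals through the metal-sensing factor MTF1 and by glucocorticoids through the glucocorticoid receptor, while Mt3 is largely a brain form, and Hmox1 and Nqo1 are classical targets of the stress-sensing factor NRF2.

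Before the results, the libraries were compared with one another. Total counts on genes ranged from 9213474 to 28438296 per library. The libraries 24M replicates 1 and 4 differed by less than the sampling noise, with a ratio of squared differences to binomial variance of 0.406 where counting noise alone gives about 1, whereas the lowest of the other 135 pairs gave 1.23. They were counted as 1 sample by their rounded mean, which leaves 5 samples at 24M. The library 3M single-end replicate 4 stood apart in 8 striatal genes, whose summed level was 589 CPM (counts of a gene scaled to library size) against a group median of 173 CPM, and results that turn on it are given without it as well. All 8 hippocampal marker genes were detected in every group, with summed levels of 1047 to 1328 CPM in the 3M single-end samples and 1153 to 1471 CPM at 24M. In paired-end samples the sums were 1175 to 1220 CPM at 3M and 1135 to 1173 CPM at 29M, all aged below all young, with 1 of 8 genes above 0 and 0 called, and Wfs1 passed the adjusted p alone (log2 -0.28, adjusted p = 0.0124, edgeR). The part of this in the results at 29M was not tested. Nothing in the labels says how many animals stand behind a library, so the p-values measure the spread between these samples.

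The 3 metallothionein genes lie side by side on the forward strand of chromosome 8 in the build GRCm38, in the order Mt3 (chr8:94152607-94154146), Mt2 (chr8:94172664-94173568) and Mt1 (chr8:94179082-94180327), with 18517 bases between Mt3 and Mt2 and 5513 bases between Mt2 and Mt1. The principal transcript of each has 3 exons. Their promoter windows, 300 bases around the start site from RefSeq (GRCm38.p6, forward strand), are shown because Mt1 and Mt2 varied together across samples of both library types, and because metals act on these genes through a known element. Capitals mark matches on either strand to the core of the metal response element, spelled TGCACNC or TGCGCNC. The windows are chr8:94178839-94179138 for Mt1, chr8:94172368-94172667 for Mt2 and chr8:94152357-94152656 for Mt3.
Mt1: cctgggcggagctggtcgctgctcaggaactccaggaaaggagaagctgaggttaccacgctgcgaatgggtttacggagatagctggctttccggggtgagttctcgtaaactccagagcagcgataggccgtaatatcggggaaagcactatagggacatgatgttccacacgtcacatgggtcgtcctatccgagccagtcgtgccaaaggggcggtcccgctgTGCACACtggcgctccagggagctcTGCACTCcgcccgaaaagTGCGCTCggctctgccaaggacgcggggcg
Mt2: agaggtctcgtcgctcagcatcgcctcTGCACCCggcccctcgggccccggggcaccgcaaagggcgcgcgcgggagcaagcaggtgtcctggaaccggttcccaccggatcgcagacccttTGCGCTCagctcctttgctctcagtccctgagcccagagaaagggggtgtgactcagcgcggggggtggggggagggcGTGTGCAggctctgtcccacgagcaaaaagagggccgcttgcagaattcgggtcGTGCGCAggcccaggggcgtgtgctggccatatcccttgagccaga
Mt3: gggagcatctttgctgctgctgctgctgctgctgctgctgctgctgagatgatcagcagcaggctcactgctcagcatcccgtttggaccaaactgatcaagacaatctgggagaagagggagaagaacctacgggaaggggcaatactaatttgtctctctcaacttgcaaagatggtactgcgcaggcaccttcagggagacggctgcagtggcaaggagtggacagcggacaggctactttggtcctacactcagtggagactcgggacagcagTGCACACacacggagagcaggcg
The Mt1 window held 3 matches, the Mt2 window 4 and the Mt3 window 1. Of 32851 mouse promoter windows of the same length, 25.7% held at least 1 match, 1.969% at least 3 and 0.5175% at least 4. The windows of Nqo1, Sod1, Sod2, Cat and Gpx1 held no match. The antioxidant response element core, spelled TGACNNNGC on both strands, matched once in the Mt2 window and once in the Sod1 window, against 12.39% of all windows with at least 1. A match is a run of letters and not a bound site. The start sites used can differ from the gene starts given above, and the Mt2 window ends just past its gene start. Sequence outside the windows was not searched, so an absent match holds for the window alone.

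**Figure D1:**
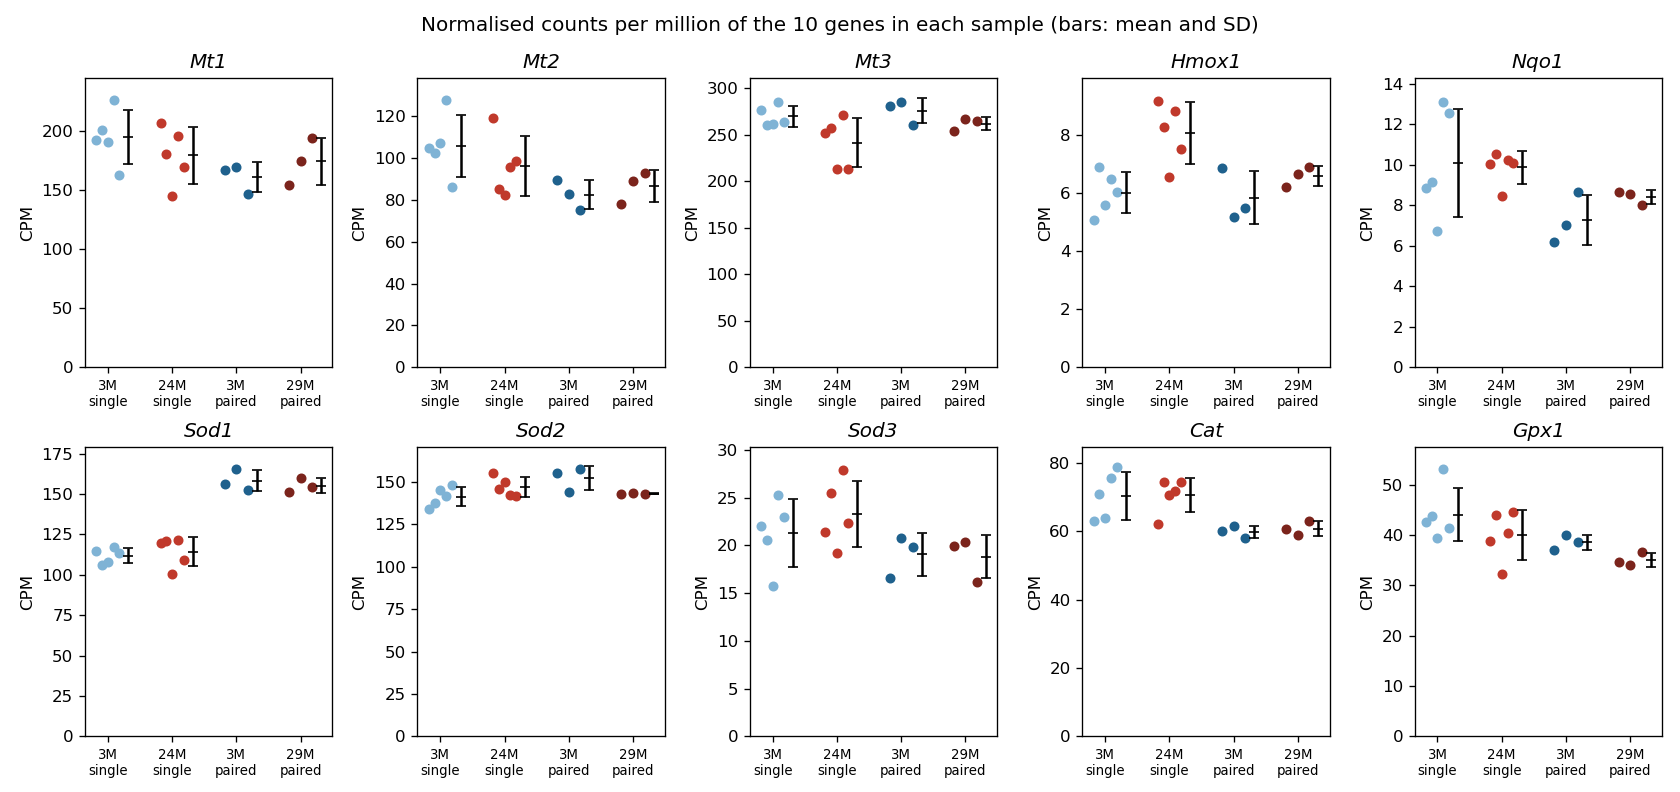
Normalised counts (CPM, y axis, from 0) of each of the 10 genes by group (x axis), with a point for each sample and the mean and SD beside it. Groups of 1 library type overlap for every gene except Sod2 and Gpx1 at 29M, where all 3 aged samples lie below all 3 young ones.

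Per length of transcript, Mt3 was the highest of the 10 genes in every group. At 3M in single-end libraries its level was 504 CPM per kilobase of the principal transcript (range 487 to 533, n = 5), followed by Mt1 at 355 and Mt2 at 207, and none of the samples of Mt3, Mt1 and Mt2 overlapped between neighbours in this order. Sod1 followed at 175 CPM per kilobase, and its samples overlapped those of Mt2. Gpx1 stood at 41.1, Cat at 26.9 and Sod2 at 24.1, with overlap between Cat and Sod2. Nqo1 at 6.49, Sod3 at 5.71 and Hmox1 at 3.83 were the lowest, and these 3 overlapped their neighbours. The order within this young group was kept at 24M. In paired-end libraries Sod1 stood above Mt2, at 247 against 161 CPM per kilobase at 3M and 242 against 169 at 29M. The order of Mt1, Mt2 and Sod1 depends on the length used, because with the union of all exons Mt2 exceeded Mt1 in each group and Sod1 at 3M in single-end libraries stood at 28.2 CPM per kilobase.

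None of the 10 genes differed between young and old hippocampus at either age by the criteria used, an adjusted p up to 0.05 together with a log2 difference of 0.5 or more in size, from the quasi-likelihood test of edgeR adjusted by Benjamini-Hochberg. All 10 passed the filter on low counts in both comparisons. At 24M 0 of 10 were called, where 1.98% of 15683 tested genes were (1.34% higher and 0.638% lower), and at 29M 0 of 10, where 1.45% of 15097 were (1.34% higher and 0.113% lower). By the adjusted p alone, at any fold, 0 of 10 passed at either age, where 5.58% of all genes passed at 24M (3.21% higher and 2.37% lower) and 2.99% at 29M (2.32% higher and 0.662% lower). DESeq2 called 0 of 10 at each age too. At an unadjusted p under 0.05 there were 2 of 10 at 24M (Mt3 and Hmox1), against 26.1% of all genes, and 2 of 10 at 29M (Sod2 and Gpx1), against 17.3%. The median log2 fold change of the 10 genes was -0.01 at 24M and -0.003 at 29M, and that of all genes tested was -0.003 and -0.002.

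The metallothioneins bind zinc and copper, and their levels at 24M lay a little under those of young hippocampus. Mt1 was measured at 193, 201, 191, 227 and 163 CPM in the 5 young samples and at 207, 180, 145, 196 and 169 CPM in the 5 samples at 24M. The groups overlapped across most of their range, the lowest sample being aged and the highest young. The log2 fold change of Mt1 was -0.12 (SE 0.096, 95% interval -0.32 to 0.09, adjusted p = 0.459 with edgeR). At 29M Mt1 stood at 155, 175 and 195 CPM against 168, 170 and 147 CPM at 3M, and the log2 fold change was 0.11 (SE 0.072, interval -0.04 to 0.27, adjusted p = 0.451 with edgeR). The young samples lay between the aged ones except for the lowest.

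Mt2, its neighbour and close relative, was measured at 105, 103, 107, 127 and 86.0 CPM in the young single-end samples and at 119, 85.4, 82.1, 95.7 and 98.4 CPM at 24M. In that comparison 4 of 5 aged samples lay under the young median of 105 CPM, and the groups overlapped. On the log2 scale the difference was -0.14 (SE 0.107, interval -0.37 to 0.09, adjusted p = 0.444 with edgeR), and at 29M it was 0.07 (SE 0.070, interval -0.08 to 0.22, adjusted p = 0.665 with edgeR). Without the young library 3M single-end replicate 4, the highest young sample for Mt1, Mt2 and Mt3, the values at 24M were -0.06 for both Mt1 and Mt2 and -0.14 for Mt3. An annotated antisense gene, Gm45774, covers 355 bases of the Mt2 transcript on the opposite strand. Counting by strand is not stated, so how reads over these bases were assigned is not known.

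Mt3, the brain metallothionein, was measured at 276, 261, 262, 286 and 264 CPM in the young single-end samples and at 253, 257, 214, 272 and 214 CPM at 24M. Among the aged samples, 4 of 5 lay below all young ones and the other within the young range. This amounted to a log2 fold change of -0.16 (SE 0.068, interval -0.30 to -0.01), with an unadjusted p of 0.0353 and an adjusted p of 0.159 with edgeR. At 29M it was -0.08 (SE 0.041, interval -0.16 to 0.01, adjusted p = 0.37 with edgeR), from 276 ± 13.5 CPM (SD, n = 3) at 3M to 262 ± 6.97 CPM (SD, n = 3).

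Heme oxygenase 1 (Hmox1) opens the heme ring and releases iron, biliverdin and carbon monoxide. It had the largest difference of the 10 genes at 24M, and also the smallest p. It was measured at 5.09, 6.91, 5.58, 6.47 and 6.03 CPM in the 5 young samples and at 9.18, 8.27, 6.55, 8.82 and 7.53 CPM in the 5 samples at 24M. Of the aged samples, 4 of 5 lay above all young ones, and the lowest of them lay within the young range. The mean went from 6.02 ± 0.716 CPM to 8.07 ± 1.05 CPM (SD, n = 5 each), a 1.34-fold difference (log2 0.43, SE 0.118, interval 0.17 to 0.68). The unadjusted p was 0.00291 and the adjusted p 0.0512 with edgeR, just above the threshold of 0.05, and the fold was under the size that was asked for.

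The Hmox1 difference at 24M was above 0 in all 24 alternative fits, and its adjusted p was 0.05 or less in 9 of them, among them DESeq2 without a prior (0.0239) and 1 fit of all 4 groups (0.0195). Its size and its p never passed together. At 29M the level of Hmox1 was 6.22, 6.66 and 6.90 CPM against 6.88, 5.17 and 5.49 CPM at 3M. This gave a log2 difference of 0.18 (SE 0.147, interval -0.13 to 0.50, adjusted p = 0.568 with edgeR), with overlapping groups. The effects at 29M and 24M differed by -0.25 on the log2 scale (SE 0.194, adjusted p = 0.666 with edgeR), so a difference between the ages was not detected, and an effect at 29M as large as at 24M lies within the interval.

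Markers of microglia, macrophages and red cells were read beside Hmox1. The 12 microglial markers were all above 0 at 24M and at 29M, their summed level was 403 to 458 CPM in young and 516 to 546 CPM in 24M samples, and it was 394 to 412 CPM and 521 to 538 CPM in the paired-end comparison. Those of macrophages outside the parenchyma were above 0 in 7 of 7 tested at 24M and in 4 of 4 at 29M, with none called by edgeR (3 and 0 at an unadjusted p under 0.05) and 1 by DESeq2 at 24M, at summed levels of 8.20 to 12.001 CPM in young and 9.38 to 17.7 CPM in 24M samples. Of 6 red cell genes 5 were tested, all above 0 at each age, with summed levels of 53.4 to 109 CPM in young and 76.4 to 547 CPM in 24M samples, and 2 of 5 were called at 29M by edgeR and 0 by DESeq2. The reverse held at 24M, with 0 called by edgeR and 2 by DESeq2. At 29M the macrophage genes Lyve1, Pf4 and Ms4a7 did not pass the filter on low counts. No marker on these 3 lists was at 0 throughout a group. Within groups, Hmox1 and the red cell genes had a Pearson r of 0.431 and a Spearman rho of 0.494 over 16 samples (adjusted permutation p = 0.689 and 0.472). With the microglial genes r was 0.268 and rho 0.0618 (adjusted permutation p = 0.791 and 0.989). With the macrophage genes they were 0.345 and 0.297 (adjusted permutation p = 0.725 and 0.734). For red cells, microglia and macrophages r was 0.507, 0.437 and 0.598 over the 10 single-end samples. Over the 6 paired-end samples it was 0.159, -0.511 and -0.169. The part of these cells in the Hmox1 level was not tested, and in whole tissue more cells of a type and more RNA per cell cannot be told apart.

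NAD(P)H quinone dehydrogenase 1 (Nqo1) reduces quinones with a pair of electrons and so keeps them from making superoxide. It was measured at 8.87, 9.14, 6.75, 13.1 and 12.6 CPM in young single-end samples and at 10.01, 10.5, 8.45, 10.2 and 10.1 CPM at 24M. The young samples spread far more than the aged ones, with a coefficient of variation of 26.6% against 8.28%, and they enclosed all aged samples. The log2 fold change was -0.03 (SE 0.160, interval -0.37 to 0.32, adjusted p = 0.938 with edgeR). Without the young library that stood apart in striatal genes, which held the highest Nqo1 level, it was 0.09. At 29M Nqo1 stood at 8.66, 8.56 and 7.99 CPM against 6.20, 7.003 and 8.63 CPM in young samples, a log2 fold change of 0.21 (SE 0.137, interval -0.08 to 0.51, adjusted p = 0.462 with edgeR).

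Sod1, the cytosolic copper and zinc enzyme, varied little between samples. It stood at 112 ± 4.63 CPM at 3M and 114 ± 9.23 CPM at 24M (SD, n = 5 each), a log2 fold change of 0.03 (SE 0.058, interval -0.09 to 0.16, adjusted p = 0.763 with edgeR). At 29M it stood at 155 ± 4.49 CPM against 158 ± 6.57 CPM (SD, n = 3 each), a log2 fold change of -0.03 (interval -0.11 to 0.06, adjusted p = 0.767 with edgeR). Young samples thus differed more between library types (112 against 158 CPM) than between ages, a comparison that was not tested. Of the windows of 50 bases in the Sod1 transcript, 23.1% also occur in the annotated gene Gm8566, and of windows of 100 bases 4.24% do, while reads that mapped to several places (22.9% to 26.6% in single-end and 10.8% to 12.7% in paired-end libraries) were not counted. The part of this in the Sod1 level was not tested.

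Sod2, the manganese enzyme of mitochondria, was measured at 143, 143 and 143 CPM at 29M and at 155, 144 and 157 CPM at 3M in paired-end libraries. All aged samples lay below all young ones, which 10.5% of genes did at 29M, and the distance to the lowest young sample was under 1 CPM. Its log2 fold change was -0.09 (SE 0.039, interval -0.18 to -0.01), with an unadjusted p of 0.0394 and an adjusted p of 0.259 with edgeR. At 24M Sod2 stood at 147 ± 5.78 CPM against 141 ± 5.55 CPM (SD, n = 5 each), a log2 fold change of 0.06 (SE 0.045, interval -0.04 to 0.15, adjusted p = 0.445 with edgeR). Sod2 had the smallest p of the 10 genes for a difference between the 2 effects, -0.15 on the log2 scale (SE 0.065), with an unadjusted p of 0.0331 and an adjusted p of 0.438 with edgeR. Across all 16055 genes in that test, 0 were called and 10.4% had an unadjusted p under 0.05.

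Sod3, the secreted enzyme, was measured at 22.0, 20.5, 15.8, 25.3 and 23.0 CPM in young single-end samples and at 21.4, 25.5, 19.2, 27.9 and 22.4 CPM at 24M. The groups overlapped, and the log2 fold change was 0.13 (SE 0.126, interval -0.14 to 0.40, adjusted p = 0.541 with edgeR). At 29M Sod3 stood at 18.8 ± 2.28 CPM against 19.0 ± 2.22 CPM (SD, n = 3 each), a log2 fold change of -0.03 (interval -0.26 to 0.20, adjusted p = 0.919 with edgeR).

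Catalase (Cat) was the gene closest to no difference at 24M, at 70.7 ± 5.01 CPM against 70.4 ± 6.97 CPM (SD, n = 5 each), with a log2 fold change of 0.01 (interval -0.15 to 0.16, adjusted p = 0.969 with edgeR). At 29M it stood at 60.8 ± 2.07 CPM against 59.8 ± 1.85 CPM (SD, n = 3 each), with a log2 fold change of 0.02 (interval -0.09 to 0.14, adjusted p = 0.867 with edgeR). Its intervals exclude a difference of 0.5 in either direction.

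Gpx1 uses glutathione to reduce hydrogen peroxide. It stood at 42.5, 43.7, 39.5, 53.1 and 41.4 CPM in young single-end samples and at 38.8, 44.0, 32.4, 40.3 and 44.5 CPM at 24M, a log2 fold change of -0.14 (SE 0.095, interval -0.35 to 0.06, adjusted p = 0.357 with edgeR). Without the young library that stood apart, which held the highest value, it was -0.07. At 29M Gpx1 was measured at 34.6, 34.1 and 36.7 CPM against 37.1, 40.1 and 38.7 CPM at 3M. All aged samples lay below all young ones, by less than 1 CPM at the nearest pair. Its log2 fold change was -0.14 (SE 0.063, interval -0.27 to -0.001), with an unadjusted p of 0.0478 and an adjusted p of 0.283 with edgeR. At 29M the groups thus did not overlap for 2 of 10 genes, against 22.4% of all genes (11.9% above and 10.5% below). At 24M the groups overlapped for all 10, and 6.57% of all genes had groups that did not (3.15% above and 3.42% below).

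**Figure D2:**
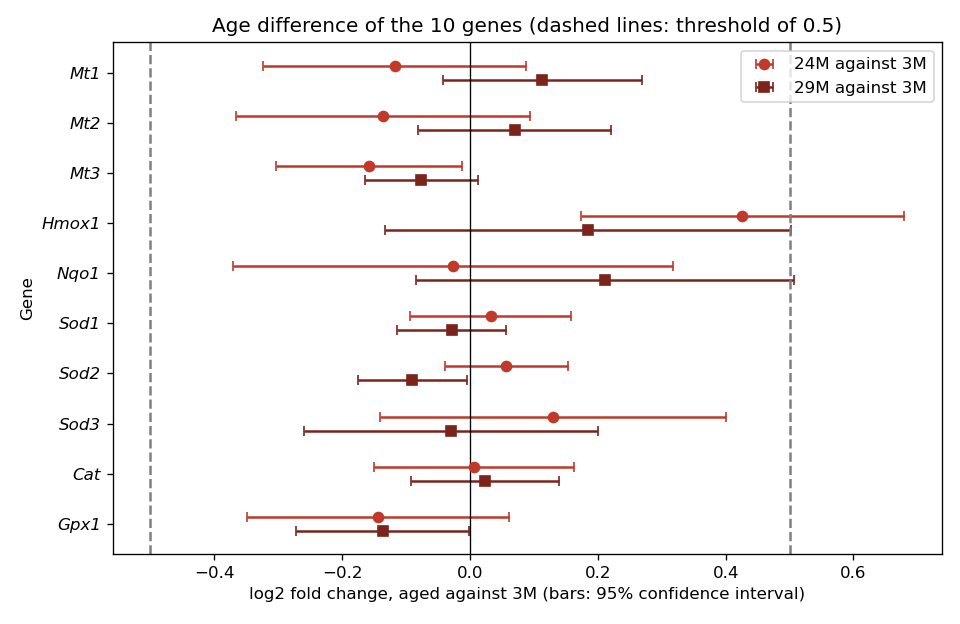
Log2 fold change (x axis) of each of the 10 genes (y axis) at 24M and 29M against 3M, with 95% confidence intervals and dashed lines at the threshold of 0.5. Only the intervals of Hmox1 at both ages and of Nqo1 at 29M cross 0.5, and no interval reaches -0.5.

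The intervals give the precision of these measurements. For 9 of 10 genes at 24M, and for 8 at 29M, the 95% interval lay wholly within 0.5 on the log2 scale in either direction, and for 8 genes it did so at both ages. Among all genes tested this held for 70.3% at 24M and 73.7% at 29M. The 2 exceptions were Hmox1 and Nqo1, the NRF2 targets and 2 of the 3 lowest genes per length.

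Although age did not separate the groups, some of the 10 genes moved together between samples of the same group. After subtraction of each group mean, the highest correlations over 16 samples were Mt3 with Sod1 (r = 0.898) and Mt1 with Mt2 (r = 0.858), followed by Nqo1 with Sod3 (0.782) and Mt1 with Mt3 (0.718). The value for Mt1 and Mt2 was 0.851 over the 10 single-end and 0.909 over the 6 paired-end samples. The ratio of Mt1 to Mt2 counts stayed within 1.72 to 2.11 over all groups. These are descriptions of points that share libraries and their depth. The genes most like Mt1 were Rnf220 (r = 0.910), Rtl8c (0.896), Pianp (0.889), Chmp4b (0.887) and Shisa4 (0.881), and those most like Mt2 were Slc25a34 (0.924), Ogdhl (0.894), Prkar1b (0.885), Zfp637 (0.865) and Mt1 (0.858), among 16054 genes over the same 16 samples. With the 20 genes of the glucocorticoid response Mt1 and Mt2 had a median r of 0.532 and 0.460. The median was 0.448 and 0.513 with the 8 striatal genes, and -0.365 to 0.352 and -0.363 to 0.208 with the other lists. With the summed striatal level r was 0.377 for Mt1 and 0.381 for Mt2. Without the 2 samples farthest from the median of that sum it was 0.101 and 0.0273. Over the 6 paired-end samples it was -0.201 and -0.204. Mt2 with Mt3 had an r of 0.350 over the single-end and 0.825 over the paired-end samples.

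**Figure D3:**
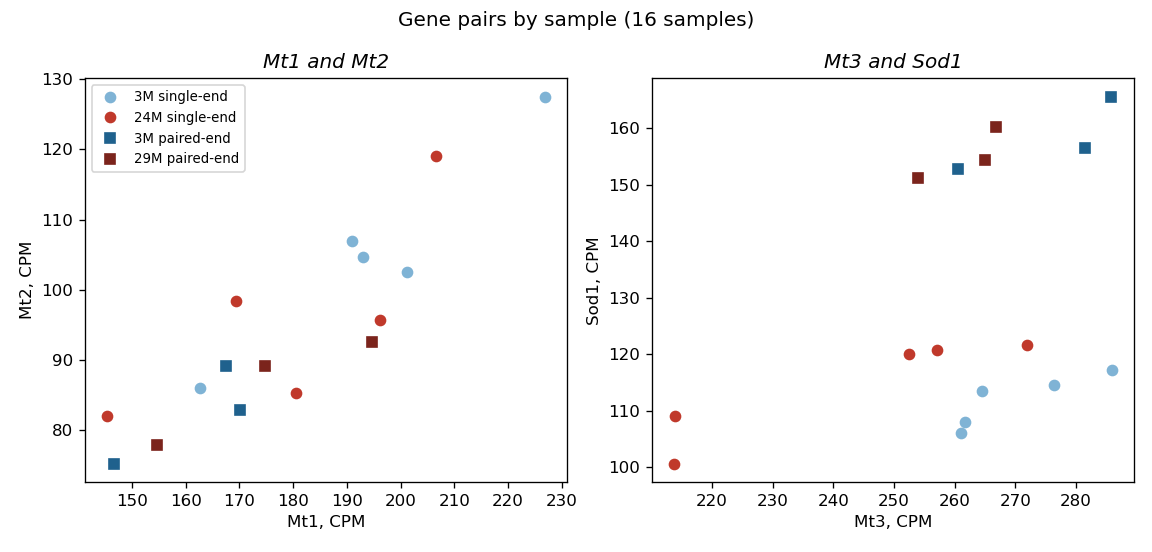
Normalised counts (CPM) of Mt2 against Mt1 (left) and of Sod1 against Mt3 (right), with a point for each of the 16 samples. Mt2 is high where Mt1 is high in all groups (r = 0.858), while Sod1 runs higher in paired-end (squares) than in single-end (circles) samples at the same Mt3.

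Nqo1 and Sod3 followed the genes of the choroid plexus, the secretory tissue of the ventricle that lies beside the hippocampus. The summed level of 10 choroid plexus genes ranged from 2102 to 8739 CPM in the young single-end samples, from 4799 to 8011 CPM at 24M, from 3590 to 6548 CPM in the young paired-end samples and from 4248 to 6452 CPM at 29M. None of these 10 genes was called at either age by edgeR or DESeq2, and 0 had an unadjusted p under 0.05. After subtraction of group means, Nqo1 had a Pearson r of 0.907 and a Spearman rho of 0.876 with that sum over 16 samples (permutation within groups, adjusted p = 0.0402 and 0.0235 over 110 relations of 10 genes with 11 marker lists). Sod3 had an r of 0.870 and a rho of 0.829 (adjusted permutation p = 0.0231 and 0.0235). Without the 2 samples farthest from the median of the choroid plexus level, r was 0.801 for Nqo1 and 0.852 for Sod3.

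The relation held within each library type. For Nqo1 r was 0.909 over 10 single-end and 0.895 over 6 paired-end samples, and for Sod3 0.879 and 0.850. Leaving Ttr, the most abundant choroid plexus transcript, out of the sum gave 0.927 for Nqo1 and 0.805 for Sod3. The lowest Nqo1 and Sod3 levels of the young single-end group, 6.75 and 15.8 CPM, were in the sample with the lowest choroid plexus level. Nqo1 also had a rho of 0.809 with the 8 striatal genes (adjusted permutation p = 0.0235), with an r of 0.749 (adjusted permutation p = 0.249) that went to 0.550 without the 2 farthest samples. The other 107 relations, those of Cat (r = 0.614, adjusted permutation p = 0.332) and Hmox1 (r = 0.0472, adjusted permutation p = 0.941) with the choroid plexus among them, did not pass by either measure. Nqo1 with the oligodendrocyte genes had an r of 0.761 (adjusted permutation p = 0.249), 0.903 over single-end and 0.201 over paired-end samples. For Sod3 r over single-end samples was 0.749 with endothelial and 0.734 with leptomeningeal genes. Over paired-end samples these were 0.271 and 0.0935. These lists were examined with the data in view, and the source of the Nqo1 and Sod3 transcripts was not tested.

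With the choroid plexus level as a covariate, an alternative chosen after the data were seen, the SE of Nqo1 at 24M went from 0.160 to 0.093 and its log2 fold change was -0.13 (interval -0.33 to 0.07, adjusted p = 0.404 with edgeR). That of Sod3 was 0.04 (SE 0.078, interval -0.13 to 0.20) at 24M. At 29M the values were 0.18 for Nqo1 (SE 0.119) and -0.06 for Sod3 (SE 0.085). None of the 10 genes was called in this fit.

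**Figure D4:**
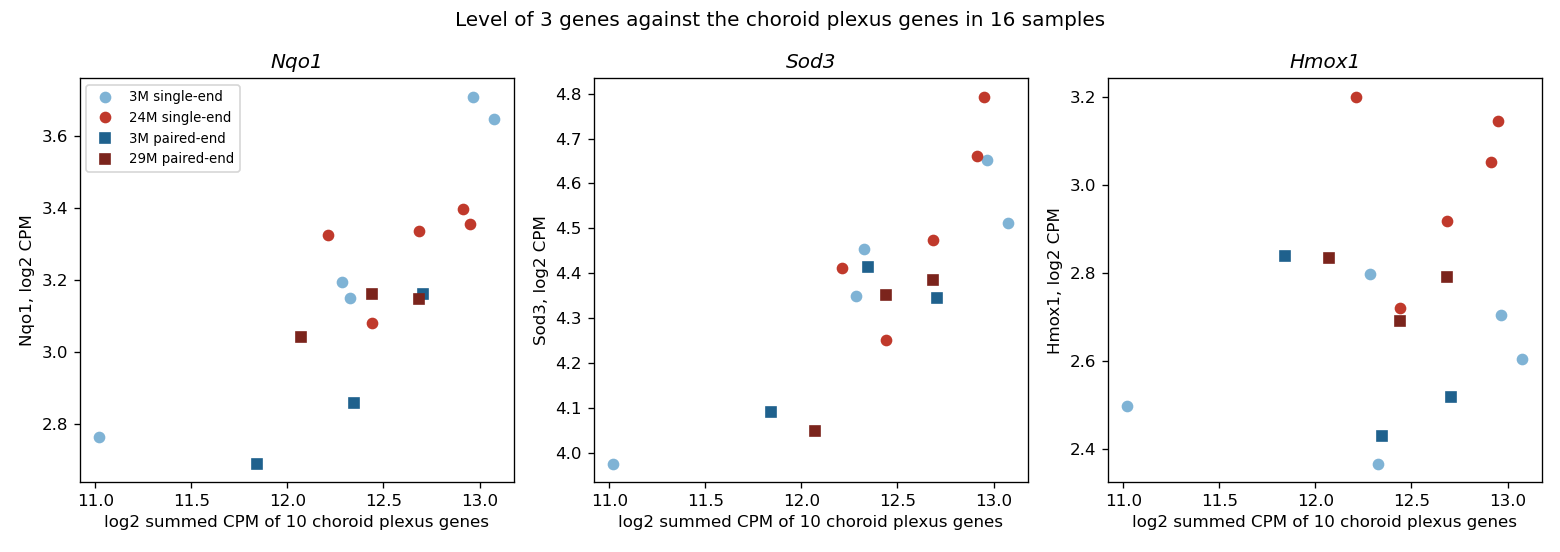
Log2 CPM (y axis) of Nqo1, Sod3 and Hmox1 against the log2 summed CPM of 10 choroid plexus genes (x axis) in 16 samples, coloured by group. Nqo1 (r = 0.907) and Sod3 (r = 0.870) are high where the choroid plexus genes are high within groups, and the points of Hmox1 (r = 0.0472) are scattered.

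The genes around these enzymes were read from lists of the same pathways. Of 26 enzymes that handle peroxides and oxidised thiols, 0 were called at either age by edgeR or by DESeq2 without a prior, with medians of -0.01 and -0.03, and 7 at 24M and 4 at 29M had an unadjusted p under 0.05. In this list the peroxiredoxin Prdx6 passed the adjusted p at both ages, at a size under the threshold (log2 0.20 with adjusted p = 0.03 for the 24M group and log2 0.23 with adjusted p = 0.00535 for the 29M group, edgeR). Its range went from 194 to 222 CPM in young samples to 225 to 248 CPM at 24M and from 175 to 183 CPM to 200 to 216 CPM at 29M, with no overlap. The extremes of the list were Gpx7 (-0.43) and Txnip (0.26) at 24M and Gpx8 (-0.26) and Txnip (0.27) at 29M, none past the test. Of 30 genes of metal transport and metal sensing tested, 0 were called at either age by edgeR or DESeq2, with medians of 0.03 and -0.01 and with 2 and 5 genes at an unadjusted p under 0.05. Their extremes were Slc39a3 (-0.21) and Slc31a1 (0.24) at 24M and Slc39a8 (-0.39) and Atp7b (0.42) at 29M.

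Among 22 genes of glutathione synthesis and conjugation, 1 was called at 24M and 0 at 29M by edgeR and by DESeq2, with medians of 0.05 and 0.07, and 9 had an unadjusted p under 0.05 at 24M and 4 at 29M. At 24M Chac1 (-0.50), which degrades glutathione, and the glutathione transferase Mgst1 (0.46) passed the adjusted p under the size threshold. Slc7a11, the cystine importer that feeds glutathione synthesis, rose at 24M from 53.9 CPM (38.2 to 63.6) to 80.9 CPM (62.1 to 89.8), a log2 fold change of 0.58 (SE 0.128, adjusted p = 0.0245 with edgeR). That call was lost without 3M replicates 1 or 4 or 24M replicates 2 or 6 and in 5 of 13 other settings, among them the GC and length offsets and DESeq2 with a prior, and at 29M its value was 0.15 (adjusted p = 0.526 with edgeR). At 29M 1 gene of this list passed the adjusted p upward, under the size threshold. The extremes were Chac1 (-0.50) and Gstt3 (0.58) at 24M and Chac2 (-0.23) and Gstt3 (0.53) at 29M, with Gstt3 not past the test at either age. Of 24 tested genes of the NRF2 pathway, which also holds Slc7a11, that gene was the 1 called at 24M, and 0 were called at 29M by edgeR or DESeq2 (4 at an unadjusted p under 0.05), with medians of 0.0003 and 0.06. Nfe2l2, which encodes NRF2 itself, stood at a log2 difference of 0.37 at 24M, under the size threshold (adjusted p = 0.0406, edgeR). Its value at 29M was 0.23 (adjusted p = 0.23, edgeR). Me1 also passed the adjusted p at 24M under the size threshold (log2 0.20, adjusted p = 0.036, edgeR). The lowest and highest of the list were Cbr3 (-0.17) and Slc7a11 at 24M and Srxn1 (-0.05) and Cbr3 (0.36) at 29M.

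Of 17 tested genes of heme and iron handling, 1 was called higher at each age and 0 lower, with medians of 0.05 and -0.04. Transferrin (Trf), the iron carrier that oligodendrocytes and the choroid plexus express, rose at both ages. It went from 44.9 CPM (31.3 to 56.1) to 67.3 CPM (62.7 to 76.3) at 24M (log2 0.58, SE 0.119, adjusted p = 0.0175 with edgeR) and from 67.0 CPM (56.4 to 75.0) to 127 CPM (115 to 138) at 29M (log2 0.92, SE 0.087, adjusted p = 6.87e-05 with edgeR). The aged samples lay above the young ones in both comparisons, and the call at 24M was lost without 3M replicate 3 or 24M replicate 2. The ferritin heavy chain Fth1, which stores iron, passed the adjusted p at a smaller size, at 0.26 and 0.23. At 29M so did the light chain Ftl1 (0.27) and, downward, the transferrin receptor Tfrc (-0.27), which takes up iron. At 24M Cp (0.47, adjusted p = 0.0334, edgeR) passed the adjusted p under the size threshold. The other extremes of the list were Heph (-0.30) and Cd163 (0.83) at 24M, neither past the test.

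The list of enzymes that make oxidants held 17 genes, and those tested had a median of 0.19 at 24M and 0.49 at 29M. A gene low in young samples can pass the filter on low counts through its aged samples. The list was also chosen with earlier results known, so these medians are descriptions only. Of 12 tested at 24M 1 was called higher, and of 9 tested at 29M 4 were, while DESeq2 without a prior called 2 higher at each age. Cybb, the catalytic subunit of the phagocyte NADPH oxidase, rose from 1.27 to 3.24 CPM at 24M (log2 1.37, SE 0.357, adjusted p = 0.042 with edgeR) and from 0.503 to 2.75 CPM at 29M (log2 2.38, SE 0.368, adjusted p = 0.00312 with edgeR). Its partners Cyba (log2 0.64) and Ncf1 (0.64) and the xanthine dehydrogenase Xdh (1.02) rose at 29M. The calls of Cybb and Xdh at 29M remained without any 1 library, while Cyba lost its call in 5 of 6 such fits, Ncf1 in 4 of 6 and Cybb at 24M in 6 of 11. At 29M Cyba and Ncf1 were not called by DESeq2, and none of the 4 was called in 1 fit of all 4 groups. The NADPH oxidase subunits are markers of phagocytes, and the microglial genes were above 0 in 12 of 12 at each age, as given with Hmox1. Their part in these values was not tested. The lowest of the list were Rac2 (-0.43) at 24M and Maoa (-0.19) at 29M.

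Of the peroxisomal genes, which surround Cat in the cell, 0 of 28 were called at 24M and 0 of 29 at 29M by edgeR or DESeq2 (6 and 4 at an unadjusted p under 0.05), with medians of -0.03 and -0.03. Pex6, a factor for import into peroxisomes, passed the adjusted p at 24M (log2 -0.38, adjusted p = 0.0245 with edgeR) under the size threshold. The other extremes were Ehhadh (0.35) at 24M and Acaa1b (-0.84) and Acox3 (0.17) at 29M, none past the test. Of 20 glucocorticoid response genes tested at 24M 2 were called higher and 1 lower, and of 19 tested at 29M 2 were called higher, with medians of 0.09 and 0.09. DESeq2 without a prior called 2 higher and 2 lower at 24M and 2 higher at 29M, and 11 and 4 genes had an unadjusted p under 0.05. Fkbp5, a co-chaperone of the glucocorticoid receptor, passed the adjusted p at 24M under the size threshold (log2 0.37, adjusted p = 0.0226, edgeR), and at 29M its value was 0.16 (adjusted p = 0.0962, edgeR). Plin4, which coats lipid droplets, rose at both ages (log2 1.37, adjusted p = 0.0023, and 1.24, adjusted p = 0.00236 with edgeR), and the calls remained without any 1 library. Sgk1, a kinase induced by glucocorticoids, rose (0.55) and Angptl4 fell (-0.90) at 24M, and the sulfotransferase Sult1a1 rose (0.64) at 29M, and these 3 calls were lost in 7 of 11, 5 of 11 and 5 of 6 fits that left out 1 library. Ddit4 (-0.13) was the lowest at 29M.

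**Figure D5:**
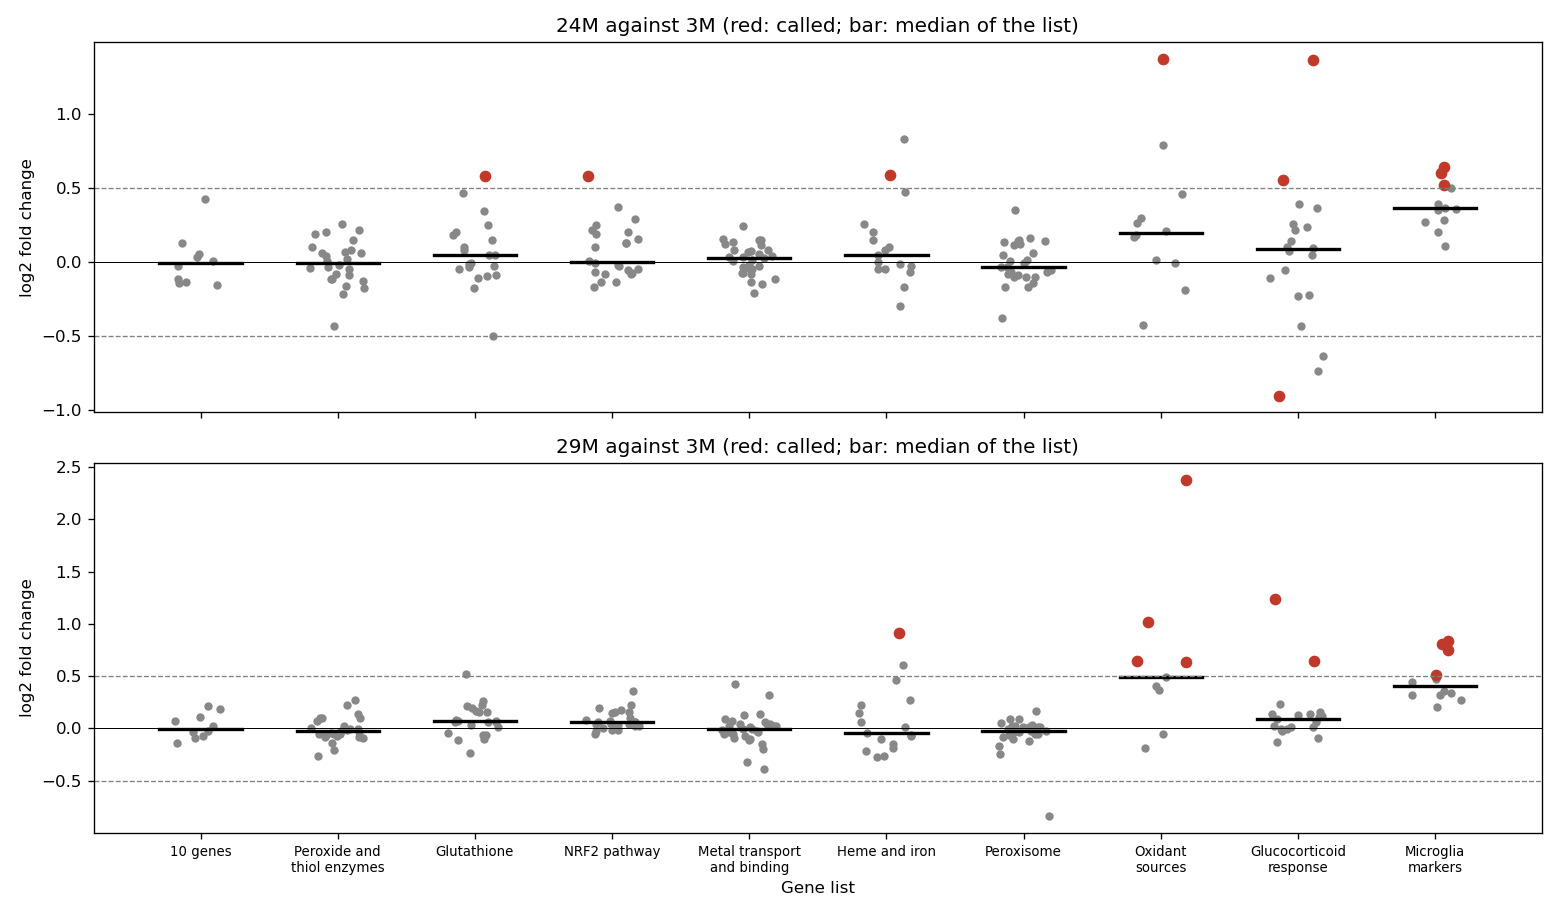
Log2 fold change (y axis) of the genes on each list (x axis) at 24M (top) and 29M (bottom), with called genes in red, the median of each list as a bar and dashed lines at 0.5. The 10 genes (first column) hold no called gene at either age, and the called genes lie in the glutathione, NRF2, iron, oxidant source, glucocorticoid and microglial columns.

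Of the other cell type lists, the 12 astrocyte markers had 9 above 0 at 24M and 10 at 29M, with medians of 0.08 and 0.07. Only Gfap was called, higher at both ages (log2 0.66 and 0.80), and 3 markers passed the adjusted p upward at each age. At 24M these included S100b (0.49, adjusted p = 0.000172) and Aqp4 (0.40, adjusted p = 0.0279), and the lowest was Aldh1l1 (-0.26, adjusted p = 0.0516, edgeR). Neuronal markers were called in 0 of 12 at each age by edgeR or DESeq2 (6 and 3 at an unadjusted p under 0.05), with medians of -0.04 and -0.05. Of the 10 oligodendrocyte markers edgeR called 0 at either age (1 and 5 at an unadjusted p under 0.05) and DESeq2 called 1 at 24M, and of the 8 mural markers both tools called 0 (2 and 1 at an unadjusted p under 0.05). The mural marker Rgs5 passed the adjusted p at 24M under the size threshold (0.40, adjusted p = 0.0175, edgeR). Endothelial markers had 1 call lower at 24M (Cldn5, -0.60), while 7 of 10 were above 0 (median 0.08). Among these Slc2a1 passed the adjusted p under the size threshold (0.28, adjusted p = 0.0315, edgeR). Leptomeningeal markers had 1 call higher at 24M (Lum, 0.85), with 7 of 9 above 0 (median 0.20) and Col1a1 lowest (-0.42). Neither list had a call at 29M, where 2 of 10 and 5 of 9 were above 0 (medians -0.14 and 0.08). The calls of Cldn5 and Lum were lost in 3 of 11 and 5 of 11 fits that left out 1 library, and each in 4 of 13 other settings.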

How the data were processed

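Gene counts of 17 hippocampal libraries were used as deposited. The authors aligned reads with STAR 2.3.0 to GRCm38.p2 (per the labels), ran HTSeq and deposited its raw counts for each gene, not normalized, and the annotation release is given in none of the sources used here. The summary lines of the counter (no feature, 8.59% to 15.9% of the total, and not unique, 10.8% to 26.6%) stayed out of library sizes and tests. Of 38355 identifiers 36602 were named from GENCODE, and 1753 had no name.

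Counts were tested in R 4.3.3 with edgeR 4.0.16 (quasi-likelihood, TMM normalization, default filter on low counts), with Benjamini-Hochberg adjustment over all genes tested, and calls needed an adjusted p up to 0.05 together with a log2 difference of 0.5 or more in size. Levels are CPM after TMM scaling, and correlations used log2 CPM with a prior count of 2. Permutation p-values came from 100000 permutations within groups and are two-sided. DESeq2 1.42.0, other filters and scalings, GC content and length offsets, a replicate block, thinning and each library left out were alternatives, and the choroid plexus covariate was added after the data were seen. Depth (9213474 to 28438296 counts per library) sets the precision of genes of low level. On simulated counts, edgeR recovered 200 of 200 changed genes (absolute log2 fold change of 1) among 15568 genes with 4 false calls for 24M. For 29M it recovered 200 of 200 among 14955 with 7 false calls. The changed genes were drawn only from genes above a minimum mean count. Recovery of smaller differences, such as 0.5, was not simulated. Marker sets of hippocampus and striatum were added after the data were seen.

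The 10 genes and all lists were chosen with earlier results of these data known. Named beside them, from each pathway list, are called genes and the genes with the highest and lowest log2 fold change at each age. Most genes past the adjusted p alone are named too. From the cell type lists only some such genes are named. For Mt1 and Mt2 the 5 genes with the highest correlation are given. Genes past the adjusted p alone were added to that rule after their values were seen. Promoter windows came from RefSeq for 8 of the 10 genes.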

Additional observations from a re-analysis of the deposited data

Results flagged for a closer look

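Of 20 groups of samples examined for 1 sample far from the rest (the 10 genes in the 2 single-end groups), 1 was set apart, and chance gives about 1 in 20. It was Nqo1 at 24M, where replicate 3 was lowest at 8.453 CPM. The gap to the next sample was 0.744 of the range of the group, above the critical value for 5 samples. That sample's summed choroid plexus level was the second lowest of the 24M group.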

How the results depend on the processing

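The count of called genes among the 10 was 0 under all 25 alternatives at 24M and all 18 at 29M, and the count that differed between the ages was 0 throughout. Of the single fold changes, 406 kept their direction. Among these are the values without a size threshold, which equal those of the main fit by construction. The direction turned for 24, none of them past the test in either state, and the cause was not tested. Those at 24M were Cat with no filter (-0.000576), with GC and length offsets (-0.00874), with these and the replicate block (-0.00806), with the choroid plexus covariate (-0.0383) and with 24M replicates 1 and 4 kept apart (-0.0225). They also held Nqo1 with the replicate block (0.0975) and with block and offsets (0.0490), Sod1 with offsets (-0.000482), Sod2 with offsets (-0.0779) and with both (-0.0646), and Mt3 with both (0.0444). Leaving out 1 library gave -0.0316 to 0.0432 for Cat and -0.149 to 0.0852 for Nqo1 at 24M, and at 29M -0.0538 to 0.00595 for Sod1, -0.119 to 0.0743 for Sod3 and -0.0028 to 0.0459 for Cat. Hmox1 at 24M ranged from 0.372 to 0.493 (adjusted p 0.0368 to 0.118 with edgeR) without 1 library and from 0.284 to 0.51 elsewhere. The replicate numbers did not pair the samples (r between same-numbered samples -0.137 to 0.0535 over 4 pairs at 24M and -0.069 to 0.0965 over 3 pairs at 29M), and with the replicate block 0 of the 10 genes were called at either age. Over all genes, 210 were called higher and 100 lower at 24M, with 91 to 394 and 28 to 174 when 1 library was left out and 58 to 504 and 25 to 371 under other settings. At 29M 202 were higher and 17 lower, with 113 to 207 and 7 to 27, and 23 to 368 and 1 to 100. With 3 samples a group at 29M, and 5 to 7 CPM, the Hmox1 interval reaches 0.50 on the log2 scale.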
